A study of Mus musculus with 37 samples.

Results

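Interferon-stimulated genes are the genes that a cell switches on when it senses interferon, the signal that virus-infected or damaged cells send to their neighbours. The 40 genes described here were named as a list, and each was taken from the liver and the cortex count tables by its Ensembl identifier through its GENCODE M21 symbol. All 40 were found among the 55536 genes of each table. The 37 libraries were made from RNA of 2 tissues, liver and brain cortex, at the age of 10 months. The groups were WT, TDP-43Q331K (knock-in mice with the Q331K form of TDP-43, an RNA-binding protein, per the series title), TMEM106B-/- (without TMEM106B, a membrane protein of lysosomes) and TMEM106B-/-TDP-43Q331K, called the combined genotype below. Liver had 4 libraries of each genotype, and cortex had 5, 6, 5 and 5 in that order. The sources used here do not say whether each library is a separate animal, so every p-value reflects only how these libraries vary, which may be technical. They give neither strain, sex nor the kind of TMEM106B-/- allele.

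Type I interferon binds the receptor pair Ifnar1 and Ifnar2, and a complex that holds the transcription factors Stat2 and Irf9 then enters the nucleus. That complex binds a short promoter sequence, the interferon-stimulated response element (ISRE), and turns on antiviral enzymes, RNA sensors, GTPases and feedback inhibitors. Type II interferon works through Ifngr1 and another promoter sequence, the gamma-activated site (GAS), and acts strongly on the guanylate-binding and immunity-related GTPases. In brain, microglia and vascular cells are known as responders, and in liver, Kupffer cells and hepatocytes.

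Sequence near the start sites was read first. The list names genes known to answer interferon, which acts through these sequences. A high share of matches therefore goes with how the list was made. RefSeq promoters (GRCm38.p6, 250 bases before to 50 after the start) held 30 of the 40 members. The ISRE core was searched as GAAA, any 2 bases and GAAA again, and the GAS as TTCNNNGAA, each on both strands. An ISRE core match was found in 21 of the 30 members (70%), against 3.99% of all 27025 genes in that table. A GAS match was found in 9 of 30 (30%), against 9.55% of all genes. Of the 4 members called in cortex below, Gbp2 had an ISRE core match, Oasl2 and Lgals3bp had none in this window, and Parp14 was among the 10 members not matched in the table. A match describes letters only. The windows below show Gbp2 as the called gene with a match, and 4 classical members chosen after their values were seen. Capitals mark every match to the ISRE core on either strand.
Gbp2, chr3:142620554-142620623, plus strand: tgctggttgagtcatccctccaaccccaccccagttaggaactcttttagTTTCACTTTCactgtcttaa
Isg15, chr4:156200865-156200934, minus strand: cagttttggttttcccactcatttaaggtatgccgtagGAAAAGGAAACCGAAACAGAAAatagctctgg
Ifit1, chr19:34640754-34640823, plus strand: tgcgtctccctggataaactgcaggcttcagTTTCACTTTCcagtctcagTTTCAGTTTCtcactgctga
Ifit3, chr19:34583357-34583426, plus strand: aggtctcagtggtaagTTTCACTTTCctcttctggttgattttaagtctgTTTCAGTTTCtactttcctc
Ifit3b, chr19:34607753-34607822, plus strand: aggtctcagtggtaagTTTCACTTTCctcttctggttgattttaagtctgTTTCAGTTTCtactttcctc
Isg15 carried 3 overlapping matches in a row and Ifit1 a pair. The match nearest the RefSeq start site lay 59 bases before it in Gbp2, 66 in Isg15 and 85 in Ifit1. GENCODE M21 places the start of Gbp2 further upstream than RefSeq does. The last 22 of the 70 Gbp2 bases shown, the match included, thus lie in GENCODE exons of Gbp2. The other windows shown had 0 bases in GENCODE exons of their genes. The 70 bases shown for Ifit3 and Ifit3b were identical letter for letter. These neighbouring genes also shared 51.2% of the Ifit3 transcript's 50-base words, so reads may be split between them and their values are uncertain. The same holds for Oas1a, which shared 57.6% of its words with another gene, almost all with Oas1g. For the 4 members called in cortex the shared part was between 0 and 2.03%.

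Libraries held 50.5 M to 74.1 M counts in liver and 28.8 M to 46.3 M in cortex (M, 1e6 counts). Tmem106b RNA was not lower in libraries labelled TMEM106B-/-. Its mean was 96.5 ± 16.3 CPM (counts per 1e6 counts of a library; SD, n = 4) in WT liver and 115.3 ± 9.32 in TMEM106B-/- liver, and 188.0 ± 4.69 (n = 5) and 184.2 ± 6.66 (n = 5) in cortex. A count over the whole gene does not test an allele that leaves RNA, so the direction of every TMEM106B effect below rests on the labels. Tardbp, the gene of TDP-43, was at 115.6 ± 18.8 CPM in WT liver and 106.0 ± 7.74 in TDP-43Q331K liver. WT cortex stood at 157.2 ± 5.44 CPM (n = 5), and TDP-43Q331K cortex at 177.9 ± 5.78 (n = 6), a difference that edgeR did not call. TMEM106B-/- cortex stood at 150.8 ± 12.2 (n = 5), and 158.1 ± 5.85 (n = 5) was the value with both changes. In bulk tissue, fewer cells of a type and less RNA per cell cannot be told apart. Liver libraries carried the hepatocyte markers at 85700 CPM or more in sum, and cortex libraries the neuron markers at 3647 CPM or more.

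Most of the genes were more abundant in liver than in cortex (the plot of mean levels by tissue). Levels are CPM after scaling within each tissue's own table, so levels set across tissues were normalised separately. Mean CPM was higher in liver for 35 of 40 members and higher in cortex for 5, namely Gbp2, Gbp5, Ifit2, Ifit3b and Xaf1. Per kilobase of exon, the median member stood at 2.19 CPM in liver and 0.699 in cortex. The highest per length in liver was Ifitm3, a membrane protein that blocks virus entry (411 CPM per kb), followed by Bst2, the tether that holds budding virus at the cell surface (211 CPM per kb). Ifitm3 (6.41 CPM per kb) and Ifi27, a mitochondrial and nuclear-envelope protein (6.36 CPM per kb), were the top pair in cortex, and their order switched in WT cortex, where Ifi27 stood at 7.09 and Ifitm3 at 5.84. The lowest per length in both tissues was Oas3, a synthase of the 2-5A messenger that activates RNase L, at 0.0896 CPM per kb in liver. In cortex 12 members had a mean below 1 CPM, among them Isg15, Irf7, Usp18 and Bst2, and only Ifit2 and Stat2 were above 10 CPM. Oas3, Zbp1, Cxcl10 and Oasl1 did not pass the filter on low counts in cortex, which left 36 of 40 members tested there and all 40 in liver.

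**Figure D1:**
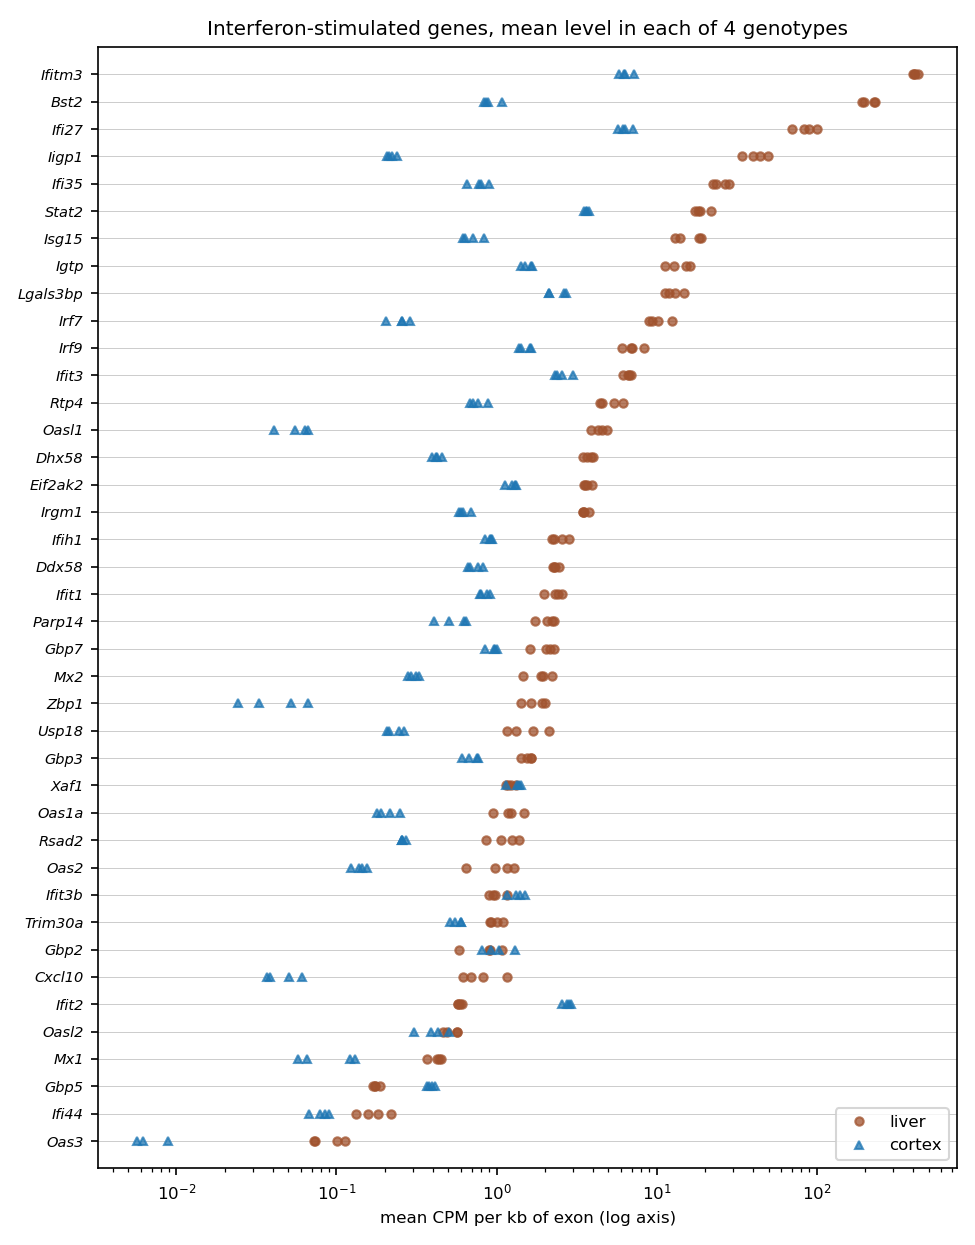
Mean CPM per kb of exon (log axis) of each of the 40 members, ordered by liver level, with 1 point per genotype in liver (brown circles) and cortex (blue triangles). Liver points lie to the right of cortex points for most genes, while Ifit2 and Gbp5 lie higher in cortex. Oas3 had no count in cortex of the combined genotype, which a log axis cannot show.

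The interferons themselves were at or near 0. Ifnb1 had no count in any of the 37 libraries, and Ifng had 16 counts over all liver libraries and 3 over all cortex libraries. The receptors were read well. Ifnar1 averaged 31.7 CPM in liver and 53.5 in cortex, Ifnar2 24.1 and 8.31, and Ifngr1 12.9 and 11.4.

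The first comparison asked what TMEM106B loss does in cortex on a normal TDP-43 background. In TMEM106B-/- cortex 4 of 36 tested members rose against WT and none fell, where 2.78% of all 21248 genes tested were called higher, 2.39% lower and 5.16% in either direction (edgeR, adjusted p under 0.05). The 4 were Parp14, Oasl2, Gbp2 and Lgals3bp. Of the 36 members, 31 had a positive log2 fold change, with a median of 0.22, against a median of 0.0064 and 51.7% positive over all genes. At an unadjusted p under 0.05, 9 were higher and 2 lower, against 19.0% of all genes in either direction. DESeq2 also called 4, where it called 6.96% of all genes.

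Parp14 (ENSMUSG00000034422, GRCm38 chr16:35832874-35871544, minus strand) encodes an ADP-ribosyltransferase of macrophages and other cells. Its WT cortices read 3.65, 3.74, 3.18, 3.77 and 4.64 CPM, and its TMEM106B-/- cortices 7.17, 5.93, 4.20, 4.97 and 7.75 CPM. The groups overlapped only through TMEM106B-/- replicate 3, which lay below the highest WT library. The log2 fold change was 0.67 ± 0.15 (SE; adjusted p = 0.0113, between 0.00121 and 0.0811 over the alternatives).

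Oasl2 (ENSMUSG00000029561, chr5:114896936-114912234, plus strand) encodes a 2-5A synthetase-like protein. Its WT cortices read 1.18, 2.35, 2.25, 2.17 and 1.77 CPM, and its TMEM106B-/- cortices 3.57, 3.79, 2.56, 2.82 and 3.44 CPM. All 5 TMEM106B-/- libraries lay above all 5 WT libraries. It was the only member not overlapping and higher, where 2.50% of all genes were. The log2 fold change was 0.73 ± 0.17 (adjusted p = 0.0135, between 0.00153 and 0.0731 over the alternatives).

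Gbp2 (ENSMUSG00000028270, chr3:142620602-142638008, plus strand) encodes a guanylate-binding protein that coats pathogen vacuoles, and its promoter window is shown above. WT cortices read 1.21, 2.27, 2.01, 1.99 and 2.67 CPM, and TMEM106B-/- cortices 3.37, 3.85, 2.10, 2.87 and 4.20 CPM. TMEM106B-/- replicate 3 again fell within the WT range, and the other 4 lay above it. The log2 fold change was 0.70 ± 0.19 (adjusted p = 0.0271, between 0.00602 and 0.174 over the alternatives).

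Lgals3bp (ENSMUSG00000033880, chr11:118392751-118402092, minus strand) encodes a secreted glycoprotein that binds galectin-3. WT cortices read 4.89, 6.41, 6.79, 6.27 and 5.95 CPM, and TMEM106B-/- cortices 7.27, 8.25, 6.76, 7.17 and 8.0 CPM. Only replicate 3 of TMEM106B-/- lay below the highest WT library. The log2 fold change was small, 0.30 ± 0.09 (adjusted p = 0.0468, between 0.0194 and 0.238 over the alternatives).

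These 4 calls did not rest equally on the libraries. Leaving out 1 library at a time left 2 to 4 members called, and Parp14 and Oasl2 kept their call each time. Gbp2 lost its call without WT replicate 1, 3 or 4 or TMEM106B-/- replicate 1, 2 or 5. Lgals3bp lost it without WT replicate 1, 2, 4 or 5 or TMEM106B-/- replicate 1, 2, 4 or 5. Markers of other cells moved alongside. The summed level of the 4 meninges markers (Dcn, Lum, Igf2, Slc22a6) was 4.57 to 15.1 CPM in WT cortices and 9.67 to 36.7 in TMEM106B-/- cortices, with none of the 4 at 0. TMEM106B-/- replicate 5, with 36.7 CPM, held the highest Parp14 and Gbp2 of its group. TMEM106B-/- replicate 3, with 9.67 CPM, held the lowest value of its group for all 4 called members. The 3 endothelium markers (Cldn5, Flt1, Pecam1) summed to 92.9 to 102.3 CPM in WT and 105.6 to 132.0 in TMEM106B-/- cortices. The 6 microglia markers summed to 190.1 to 217.6 and 207.1 to 220.5 CPM, and of these Tmem119 rose (0.36 ± 0.08). All 3 oligodendrocyte markers fell, with sums of 2143 to 2485 and 771.6 to 1105 CPM. T cell markers summed to 0 to 0.129 CPM in WT, where 2 of the 3 were at 0, and to 0.152 to 0.195 in TMEM106B-/- cortices, without overlap. These sums rest on few counts near the floor. No T cell marker passed the filter on low counts in cortex, so none was tested. Of the astrocyte markers Slc1a3 rose (0.23 ± 0.05), with sums of 536.2 to 660.8 CPM in WT and 543.8 to 771.0 in TMEM106B-/- cortices. The part of these markers in the result was not tested. Without the cortex of highest meninges sum in each genotype (replicate 5 of WT, 4 of TDP-43Q331K, 5 of TMEM106B-/- and 2 of the combined genotype, a rule chosen after seeing the data), edgeR called 2 of 36. These were Parp14 (0.64, adjusted p = 0.0243) and Gbp2 (0.71, adjusted p = 0.0337), while Oasl2 (0.68, adjusted p = 0.0636) and Lgals3bp (0.27, adjusted p = 0.171) were not called. Without these libraries the mean meninges sum was 9.68 CPM in WT and 21.1 in TMEM106B-/- cortices, against 10.8 and 24.2 with all. The difference in meninges sum thus stayed, and its part in these calls was not tested.

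**Figure D2:**
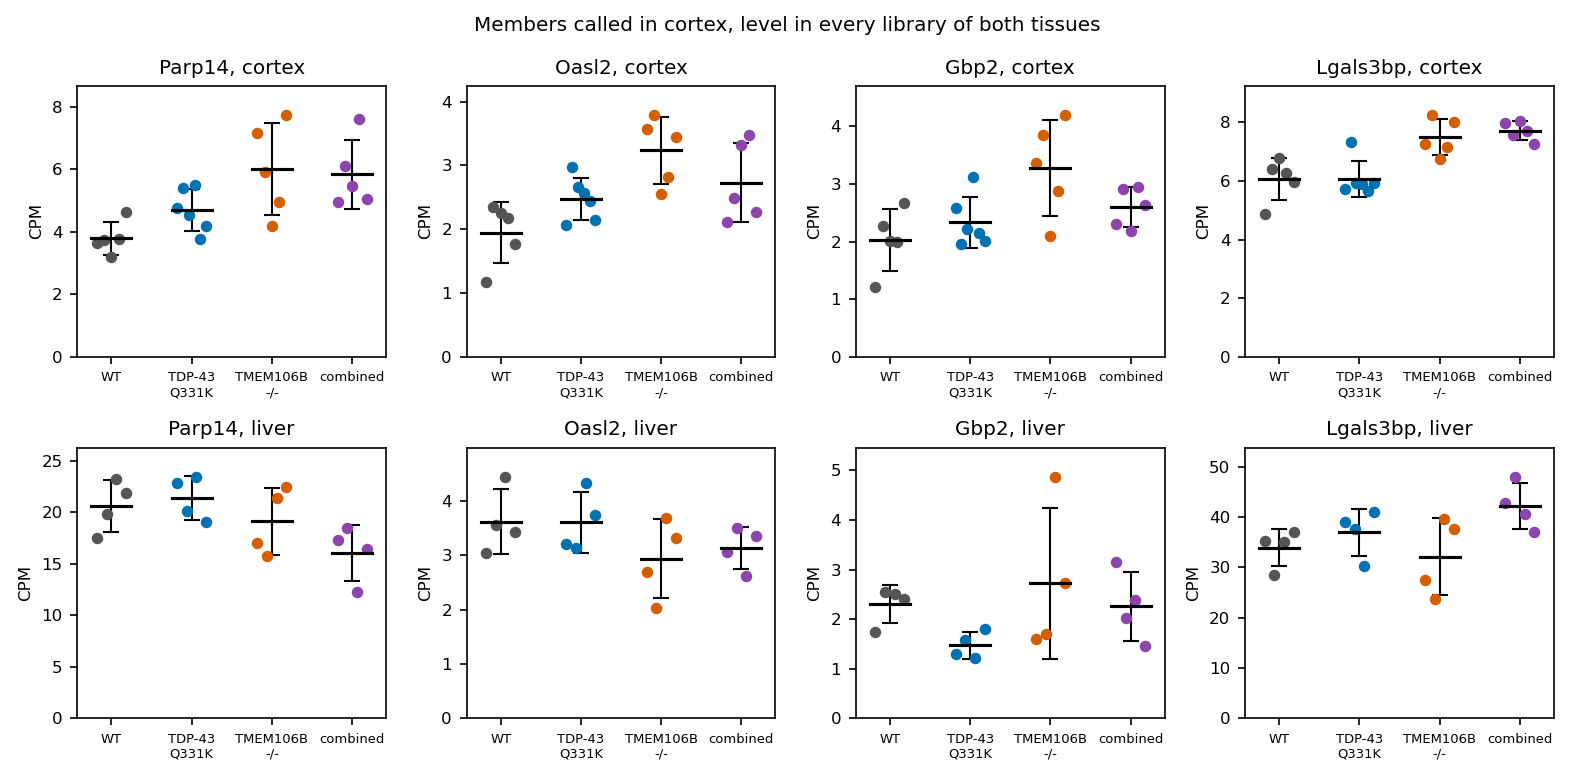
CPM of Parp14, Oasl2, Gbp2 and Lgals3bp in every library of cortex (top) and liver (bottom), with points as libraries, long lines as group means and error bars as SD. In cortex the TMEM106B-/- means lie above the WT means for all 4 genes, and in liver the Gbp2 mean is 2.73 CPM in TMEM106B-/- and 2.30 in WT. That liver mean rests on TMEM106B-/- replicate 3 at 4.875 CPM, with the others at 1.598, 1.692 and 2.738.

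The members that were not called in that comparison can be read by role. Among the antiviral GTPases Mx1 had a log2 fold change of 0.87 ± 0.34 (adjusted p = 0.15), on 2 to 28 counts per cortex library. The IFIT proteins, which bind foreign RNA ends, gave 0.21 ± 0.17 for Ifit1, 0.33 ± 0.15 for Ifit3 and 0.19 ± 0.14 for Ifit3b. Ifit2 differed from them in sign (-0.18 ± 0.07, adjusted p = 0.15), and its groups did not overlap. Its WT cortices read 10.9 to 11.9 CPM and its TMEM106B-/- cortices 9.11 to 10.7 CPM. It was the only member not overlapping and lower, where 3.39% of all genes were. Isg15, the ubiquitin-like modifier, stood at 0.40 ± 0.27, and Usp18, the protease that removes it, at 0.38 ± 0.28. Irf9 stood at 0.26 ± 0.12, while Stat2 (-0.04 ± 0.07) and Irf7 (0.00 ± 0.17) were close to 0. The 4 tested RNA sensors and responders were all positive, from 0.05 ± 0.11 for Ifih1 through 0.22 ± 0.13 for Eif2ak2 to 0.32 ± 0.12 for Ddx58. The immunity-related GTPases Igtp (0.25 ± 0.20), Irgm1 (0.25 ± 0.12) and Iigp1 (0.17 ± 0.22), the membrane proteins Bst2 (0.37 ± 0.23) and Ifitm3 (0.32 ± 0.17), and Oas1a (0.31 ± 0.33) were positive too. Rsad2, known as viperin, stood at 0.01 ± 0.19 and Ifi27 at -0.19 ± 0.11. None of these passed the test.

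Other genes of the pathway were read from lists written with earlier results of these data known. In TMEM106B-/- cortex 4 of 45 tested further interferon-induced genes rose against WT and none fell, where 2.78% of all genes were called higher. They were Tor3a (1.24 ± 0.26), Helz2 (0.53 ± 0.11), Parp10 (0.62 ± 0.17) and Irgm2 (0.47 ± 0.13). Helz2, a helicase that acts as a coactivator, read 6.28 to 8.20 CPM in WT and 8.26 to 12.7 in TMEM106B-/- cortices, without overlap, and its adjusted p of 0.00708 lay between 0.000508 and 0.0516 over the alternatives, the highest without the cortex of highest meninges sum in each genotype. Of the antigen presentation genes 6 of 20 rose. They were the class II genes H2-Aa (1.73 ± 0.45), H2-Eb1 (1.39 ± 0.35), H2-Ab1 (1.38 ± 0.38) and Cd74, their invariant chain (1.48 ± 0.38), with the class I partners B2m (0.28 ± 0.08) and Tapbp (0.25 ± 0.06). Cd74 read 0.518 to 2.16 CPM in WT cortices, and 4.46, 4.77, 0.770, 2.51 and 4.59 CPM in TMEM106B-/- replicates 1 to 5. Replicate 3 was again within the WT range. Over 17 alternatives B2m lost its call under 13, Cd74 and H2-Ab1 under 10, H2-Aa under 9, Tapbp under 7 and H2-Eb1 under 4. Parp10 and Irgm2 lost theirs under 9, Helz2 under 1 and Tor3a under 0. Tor3a read 3.37 to 5.82 CPM in WT and 7.44 to 14.03 in TMEM106B-/- cortices. In cortex of the combined genotype it read 13.05, 9.68, 4.69, 5.09 and 4.64 CPM in replicates 1 to 5. Replicates 3 to 5 lay within the WT range. Sensors of nucleic acid rose in 3 of 18 (Tmem173, the STING adaptor, 0.46 ± 0.12; Trim25 0.36 ± 0.10; Ikbke 0.66 ± 0.19), and receptors in 1 of 5 (Il10rb, shared by interferon lambda and interleukin 10, 0.47 ± 0.12). Trim25 and Ikbke lost their calls under 10 of the 17, Tmem173 under 8 and Il10rb under 6. None of the 15 signalling genes was called. Irf1 stood at 0.27 ± 0.12, Ifnar1 at 0.04 ± 0.04, Ifnar2 at 0.18 ± 0.07 and Ifngr1 at 0.24 ± 0.09.

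TDP-43Q331K cortex was then compared with WT cortex for the effect of Q331K with TMEM106B intact. No member was called by edgeR or DESeq2. edgeR called no other gene either, so the background was 0%, and DESeq2 called 0.0471% of all genes. At an unadjusted p under 0.05 there was 1 member, Mx1 (0.97 ± 0.32, adjusted p = 0.775), against 4.88% of all genes. The log2 fold change was positive in 31 of 36 members, with a median of 0.09, against 0.0027 and 51.4% positive over all genes. Parp14 stood at 0.31 ± 0.15, Oasl2 at 0.34 ± 0.17, Gbp2 at 0.20 ± 0.18 and Lgals3bp at 0.00 ± 0.09. No member's groups were without overlap, against 0.353% of all genes higher and 0.499% lower.

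In cortex of the combined genotype 2 of 36 members rose against WT and none fell, where 2.53% of genes were called higher, 2.36% lower and 4.89% in either direction. Parp14 rose by 0.62 ± 0.15 (adjusted p = 0.0249, between 0.00492 and 0.0842 over the alternatives), with libraries of 4.95, 6.12, 5.48, 7.63 and 5.06 CPM, all above every WT library. Lgals3bp rose by 0.35 ± 0.09 (adjusted p = 0.029, between 0.00804 and 0.0829), with 7.98, 7.59, 8.06, 7.69 and 7.27 CPM, also all above WT. These were the only members not overlapping and higher, where 2.96% of all genes were. The WT libraries are those of the TMEM106B-/- comparison, so the values of both stand side by side without a count of shared calls. Oasl2 (0.48 ± 0.18, adjusted p = 0.109) and Gbp2 (0.36 ± 0.19, adjusted p = 0.28) did not pass. DESeq2, which called 7.53% of all genes here, also called Parp14 and Lgals3bp, but neither Oasl2 nor Gbp2. Positive values were found for 22 of 36 members, with a median of 0.05, against 0.0089 and 52.2% positive over all genes. The count fell to 0 without WT replicate 4 or the combined genotype's replicate 4, and to 1 without WT replicate 1, 2, 3 or 5 or the combined genotype's replicate 1 or 3. Without the cortex of highest meninges sum in each genotype 2 were called, Parp14 (0.68, adjusted p = 0.0223) and Ifi27, which stood at -0.30 ± 0.11 with all libraries (adjusted p = 0.108), and Lgals3bp was not (0.34, adjusted p = 0.0638). The mean meninges sum then was 9.68 CPM in WT and 20.7 in the combined genotype, so that difference stayed. The meninges markers summed to 15.7 to 31.4 CPM in the combined genotype and the oligodendrocyte markers, all 3 of which fell, to 834.2 to 1864 CPM. The endothelium markers summed to 107.9 to 113.5 CPM, above every WT cortex, and the astrocyte markers to 653.4 to 738.8 CPM. Tmem119 (0.32 ± 0.08) and the astrocyte markers Slc1a3 (0.21 ± 0.05) and Gja1 (0.33 ± 0.09) rose. The part of these markers was not tested. Among the pathway lists B2m (0.44 ± 0.08, adjusted p = 0.00641), Il10rb (0.44 ± 0.12), Ifngr1 (0.29 ± 0.09), Tlr7, a sensor of single-stranded RNA (0.42 ± 0.12), and Pias1, an inhibitor of cytokine signalling (0.16 ± 0.04), rose, where 2.53% of all genes were called higher. They were 1 of 20 antigen presentation genes, 2 of 5 receptors, 1 of 18 sensors and 1 of 15 signalling genes. None of 45 further interferon-induced genes was called. Ifngr1 lost its call under 12 of 17 alternatives, Tlr7 under 10, Il10rb under 9 and Pias1 under 8. B2m read 52.5 to 59.1 CPM in WT and 66.2 to 88.9 in the combined genotype, and it kept its call under all 17 alternatives.

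TMEM106B loss on the Q331K background was read from the combined genotype against TDP-43Q331K cortex. There 1 of 36 members rose, Lgals3bp (0.34 ± 0.09, adjusted p = 0.0451, between 0.0101 and 0.107), where 0.800% of genes were called higher and 1.40% in either direction. Its 6 TDP-43Q331K libraries had a lowest value of 5.65, a median of 5.90 and a highest of 7.32 CPM, and the highest overlapped the combined genotype by a narrow margin. Leaving out any single library other than TDP-43Q331K replicate 2 or the combined genotype's replicate 5 ended the call, and so did leaving out the cortex of highest meninges sum in each genotype (adjusted p = 0.0934). Mx1 was lower by 1.16 ± 0.33 on the log2 scale (adjusted p = 0.0706), and DESeq2, which called 3.91% of all genes here, called it. Its 6 TDP-43Q331K libraries had a lowest value of 0.306, a median of 0.487 and a highest of 0.692 CPM, against 0.231, 0.15, 0.329, 0.162 and 0.209 CPM in the combined genotype. The groups overlapped through the combined genotype's replicate 3. No member was without overlap, against 1.21% of genes higher and 0.993% lower. Among the pathway lists edgeR called B2m higher (0.36, adjusted p = 0.0283), 1 of 20 antigen presentation genes, and no gene of the other lists. B2m lost its call under 8 of 18 alternatives.

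Q331K on the TMEM106B-/- background and the interaction, which asks whether the effect of TMEM106B loss differs with the Q331K change, called no gene in cortex (0%). DESeq2 called no gene in either. Unadjusted, 6 members passed in each, against 4.96% and 4.57% of all genes. Ifit3b was the only member without overlap between the combined genotype (2.03 to 2.64 CPM) and TMEM106B-/- (2.64 to 3.36 CPM), a gap smaller than the rounding of these values, where 0.184% of genes were lower and 0.202% higher without overlap. In the interaction 30 of 36 members had a negative value, with a median of -0.25 against -0.0041 and 48.8% positive over all genes. The lowest was Mx1 at -2.02 ± 0.47 (adjusted p = 0.715), since it was high in both single genotypes (0.492 ± 0.123 and 0.457 ± 0.157 CPM, SD, n = 6 and n = 5) and low in WT and the combined genotype (0.250 ± 0.116 and 0.216 ± 0.071, n = 5 each).

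**Figure D3:**
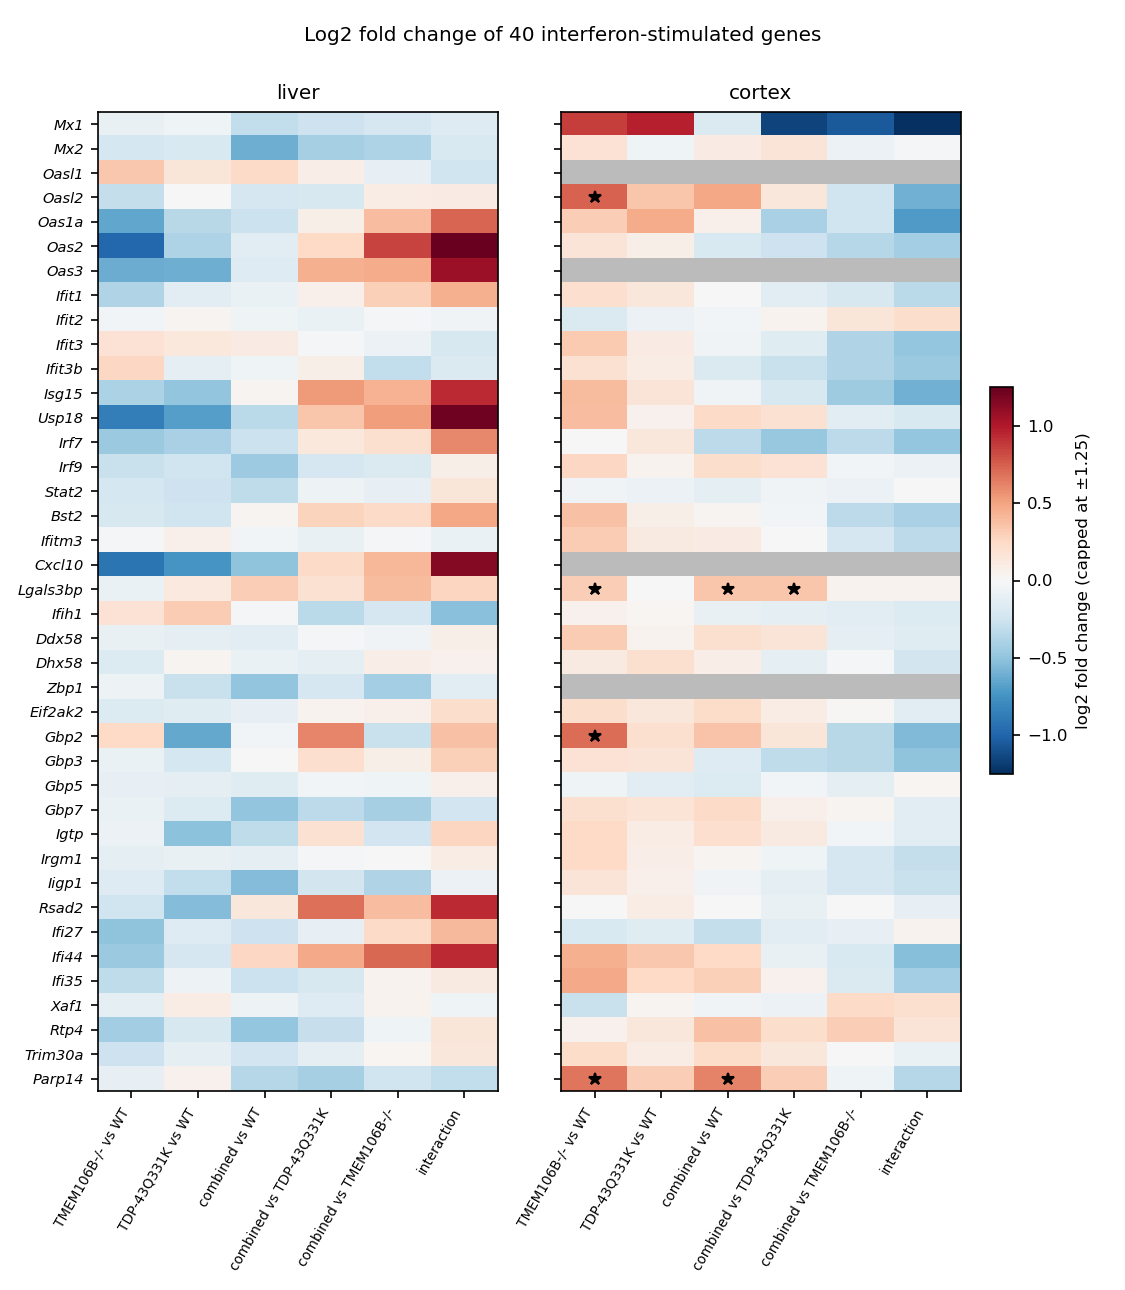
Log2 fold change of each member (rows, ordered by role) in the 6 comparisons (columns) of liver and cortex, coloured from blue (lower) to red (higher), with stars for adjusted p under 0.05. Grey rows were not tested in cortex. All 7 stars lie in cortex, and the liver columns against WT are mostly pale blue.

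In liver no member was called in any of the 6 comparisons by edgeR. For TMEM106B-/- against WT the background was 1.05% of 16710 genes called in either direction. At an unadjusted p under 0.05, 6 members passed, all lower, against 15.1% of all genes in either direction, and DESeq2 called 2, Oas2 and Usp18, where it called 3.69% of all genes. The values leaned to the negative side. Of 40 members 35 were negative, with a median of -0.17, against 0.0027 and 50.4% positive over all genes.

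Oas2, a synthase of 2-5A, read 3.98, 6.90, 5.11 and 6.74 CPM in WT livers and 3.43, 1.89, 3.08 and 3.14 CPM in TMEM106B-/- livers. All 4 TMEM106B-/- libraries were below all 4 WT libraries, and Oas2 was the only member without overlap, where 3.67% of genes were lower and 3.52% higher without overlap. Its log2 fold change was -0.98 ± 0.25 (adjusted p = 0.0722, between 0.00925 and 0.207 over the alternatives).

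Usp18, the negative regulator that shuts off the type I receptor, read 3.82, 5.96, 7.69 and 6.32 CPM in WT and 2.84, 2.29, 5.19 and 2.74 CPM in TMEM106B-/- livers. TMEM106B-/- replicate 3 stood among the WT values, and the other 3 lay below all of them. The log2 fold change was -0.86 ± 0.25 (adjusted p = 0.108), and without replicate 3 Usp18 was called.

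The remaining 2-5A genes gave -0.65 ± 0.27 for Oas1a, -0.62 ± 0.37 for Oas3, -0.30 ± 0.19 for Oasl2 and 0.34 ± 0.20 for Oasl1. Cxcl10, the chemokine that draws T cells, stood at -0.92 ± 0.39 on 52 to 261 counts per library, Irf7 at -0.47 ± 0.19, Irf9 at -0.28 ± 0.17, Stat2 at -0.22 ± 0.16 and Isg15 at -0.40 ± 0.24. The IFIT genes did not share a sign, with Ifit1 at -0.38 ± 0.37, Ifit3 at 0.18 ± 0.32 and Ifit3b at 0.25 ± 0.33. Mx1 stood at -0.10 ± 0.40. Of the sensors, Ddx58 stood at -0.09 ± 0.12, Eif2ak2 at -0.17 ± 0.13, Zbp1 at -0.07 ± 0.35 and Ifih1 at 0.18 ± 0.10. Ifi27 stood at -0.50 ± 0.17, Bst2 at -0.20 ± 0.10 and Ifitm3 at -0.02 ± 0.13. Of the cortex-called members Parp14 was at -0.11 ± 0.14, Gbp2 at 0.25 ± 0.31 and Lgals3bp at -0.08 ± 0.15. Markers of sinusoidal endothelium, the lining cells of liver vessels, summed to 92.3 to 133.4 CPM in WT and 73.3 to 87.3 in TMEM106B-/- livers, with none of the 4 at 0. Plasmacytoid dendritic cell markers summed to 0.423 to 0.783 CPM in WT and 0.147 to 0.374 in TMEM106B-/- livers, also without overlap. Those sums are low, and neither of the 2 markers tested was called. The part of these markers was not tested. The median SE of a member was 0.225 in liver against 0.166 in cortex for the same comparison.

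TDP-43Q331K livers against WT gave 0 members called by edgeR and by DESeq2, against 0.263% of all genes in edgeR and 2.37% in DESeq2. Unadjusted, 5 passed (1 higher, 4 lower), against 15.2% of genes. Of the 40, 31 were negative with a median of -0.16, against -0.0087 and 48.8% positive over all genes. Groups without overlap were found for Ifih1, the MDA5 sensor, on the higher side (4.09% of genes) and for Irf7, Bst2 and Rsad2 on the lower side (4.54% of genes). Ifih1 read 18.5, 18.2, 19.1 and 18.3 CPM in WT and 23.1, 23.4, 20.1 and 25.4 CPM in TDP-43Q331K (0.31 ± 0.10, adjusted p = 0.177). Bst2 read 207.5, 212.7, 201.9 and 195.3 CPM in WT and 149.6, 173.5, 186.3 and 180.5 CPM in TDP-43Q331K (-0.24 ± 0.10, adjusted p = 0.279). Irf7, which amplifies interferon production, stood at -0.41 ± 0.19, and Rsad2 at -0.55 ± 0.27. T and NK cell markers summed to 1.78 to 3.58 CPM in WT and 1.16 to 1.58 in TDP-43Q331K livers, and the acute phase transcripts to 1013 to 6103 and 791.0 to 924.9 CPM, both without overlap. Kupffer cell markers summed to 108.7 to 227.8 CPM in WT and 71.8 to 133.0 in TDP-43Q331K. Their part was not tested.

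In liver of the combined genotype against WT 7.04% of all genes were called (4.19% higher, 2.85% lower) but none of the 40 members, of which 5 passed unadjusted, all lower, against 22.6% of genes. DESeq2 called 1, Iigp1, where it called 11.1% of all genes. The value was negative for 33 of 40, with a median of -0.15 against -0.029 and 46.5% positive over all genes. Iigp1, an immunity-related GTPase of parasite defence, read 245.9, 392.5, 266.2 and 243.5 CPM in WT and 235.4, 226.6, 160.2 and 167.9 CPM in the combined genotype, without overlap (-0.54 ± 0.17, adjusted p = 0.0586, between 0.0311 and 0.193). Irf9 (-0.45 ± 0.17) was also lower without overlap, where 6.48% of genes were, and Lgals3bp (0.31 ± 0.15) was higher, where 8.08% were. Other members gave -0.31 ± 0.41 for Mx1, 0.04 ± 0.23 for Isg15, -0.08 ± 0.37 for Ifit1 and 0.03 ± 0.10 for Bst2. WT replicate 2, with the highest Iigp1, and the combined genotype's replicate 1 held 6103 and 6729 CPM of the 8 acute phase transcripts in sum. TMEM106B-/- replicate 4 held 6828, and the other livers 571.6 to 2378. Without these 3 livers (chosen after seeing the data) Zbp1 was called and no other member, and the part of the acute phase in the results was not tested.

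The combined genotype against TDP-43Q331K in liver had 3.94% of genes called and no member. Unadjusted, 5 passed (3 higher, 2 lower), against 20.5% of genes, and DESeq2 called 1, Ifih1, where it called 7.88% of genes. Ifih1 read 19.7, 18.8, 17.5 and 17.1 CPM in the combined genotype, below every TDP-43Q331K library (-0.34 ± 0.10, adjusted p = 0.0656). Parp14 was also lower without overlap (-0.41 ± 0.14; 7.38% of genes), and Bst2 (0.28 ± 0.10) and Rsad2 (0.69 ± 0.27) were higher without overlap (7.59% of genes). Against TMEM106B-/- livers 1.04% of genes were called (0.485% higher, 0.551% lower) and no member. Unadjusted, 5 passed, against 13.5% of genes. No member was without overlap, where 4.51% of genes were higher and 4.48% lower. DESeq2 called 1, Oas2 (0.85 ± 0.25 in edgeR), where it called 3.18% of genes.

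The liver interaction called 0.688% of genes and no member by edgeR, with 7 members unadjusted (6 higher, 1 lower) against 16.3% of genes. DESeq2 called 4, namely Ifih1, Usp18, Oas2 and Bst2, where it called 3.55% of genes. In edgeR they stood at -0.52 ± 0.14 (adjusted p = 0.0976), 1.22 ± 0.35 (0.116), 1.23 ± 0.35 (0.11) and 0.48 ± 0.15 (0.132) in that order. Isg15 stood at 0.93 ± 0.33 (adjusted p = 0.188). Positive values were found for 27 of 40, with a median of 0.13, against -0.0055 and 49.4% positive over all genes. The library values show the shape. Mean Usp18 was 5.95 ± 1.60 CPM (SD, n = 4) in WT and 3.69 ± 0.31 with Q331K alone. It was 3.26 ± 1.30 CPM with TMEM106B loss alone and 4.70 ± 1.09 with both. Bst2 was also lower in both single genotypes than in WT and the combined genotype, at 204.3 ± 7.49, 172.5 ± 16.1, 177.5 ± 24.2 and 209.2 ± 10.2 CPM in the same order of groups. Ifih1 was higher in both single genotypes, at 18.5 ± 0.38, 23 ± 2.21, 21.1 ± 2.37 and 18.3 ± 1.19 CPM.

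**Figure D4:**
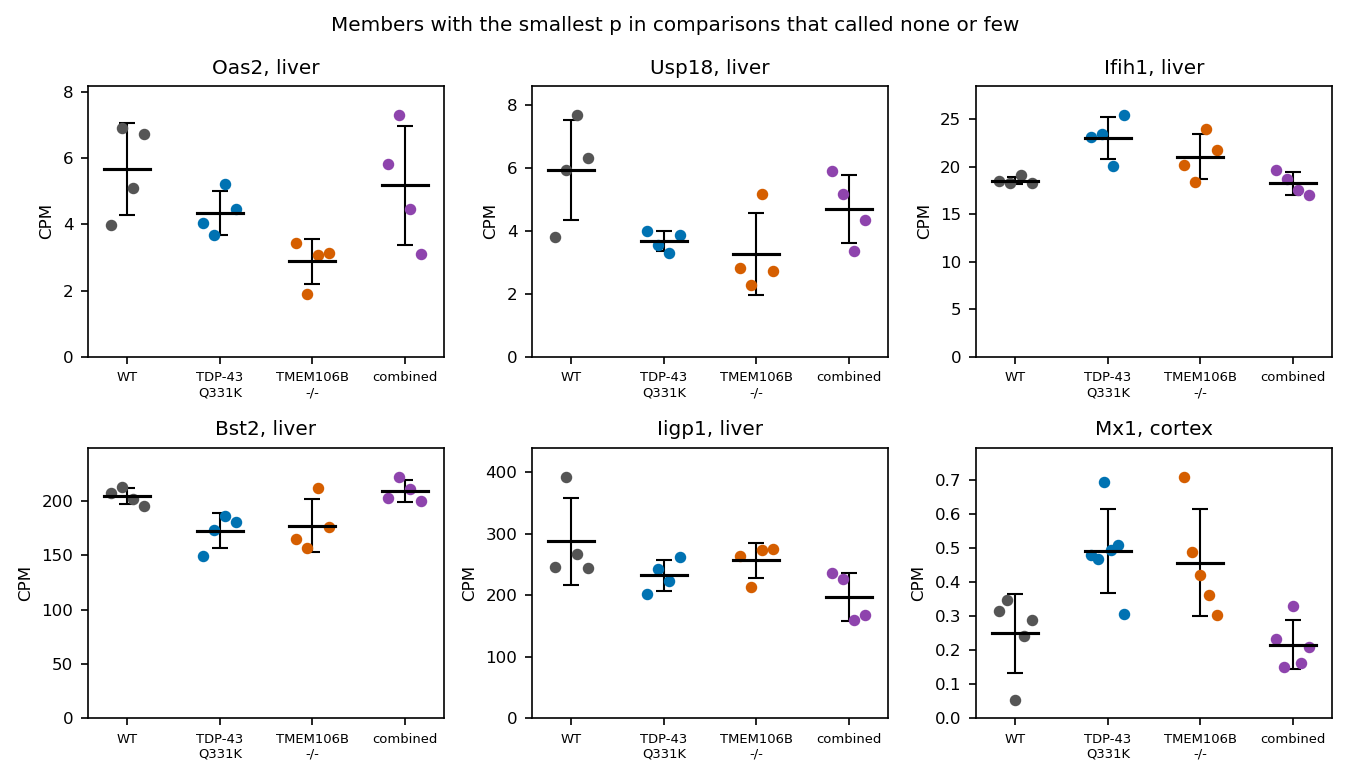
CPM of Oas2, Usp18, Ifih1, Bst2 and Iigp1 in every liver and of Mx1 in every cortex, with points as libraries, long lines as group means and error bars as SD. Usp18 and Bst2 means are lower in both single genotypes than in WT and the combined genotype, and Ifih1 in liver and Mx1 in cortex are higher there. None of these 6 passed the edgeR threshold in an interaction.

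Among the other pathway genes in liver the clearest was Irf5, a transcription factor of Toll-like receptor signalling in macrophages. It read 11.9, 11.8, 11.1 and 14.3 CPM in WT livers and 12, 9.32, 11.1 and 12.8 CPM in TDP-43Q331K livers. TMEM106B-/- livers read 8.73, 7.86, 9.69 and 9.29 CPM, and those with both changes 5.15, 4.47, 4.09 and 3.88 CPM. The combined genotype lay below every other liver library. Irf5 fell by 1.02 ± 0.13 on the log2 scale against TMEM106B-/- (adjusted p = 0.000929, at most 0.0152 over the alternatives) and by 1.36 ± 0.13 against TDP-43Q331K. Its interaction was -0.89 ± 0.18 (adjusted p = 0.0327), a call lost under 12 of 21 alternatives. The 6 Kupffer cell markers summed to 103.1 to 163.7 CPM in the combined genotype and 108.7 to 227.8 in WT livers. Against WT, Irf3 (-0.40 ± 0.11), the RNA editor Adar (-0.48 ± 0.14), Daxx (-0.40 ± 0.10) and Ifitm2 (-0.95 ± 0.25) fell in the combined genotype, and Lgals9, galectin-9, rose (0.69 ± 0.13). Lgals9 kept its call under all 14 alternatives, while the 4 that fell lost theirs under 8 to 11 of them. With Irf5, 2 of 15 signalling genes, 1 of 17 sensors and 2 of 56 further interferon-induced genes were called lower. Over all genes 2.85% were. Lgals9 was the 1 of 56 called higher, where 4.19% of all genes were. No antigen presentation gene or receptor was called. Irf1 (-0.12 ± 0.24), Ifnar1 (0.03 ± 0.10), Ifnar2 (-0.29 ± 0.11) and Ifngr1 (0.03 ± 0.14) did not pass. For the combined genotype against TDP-43Q331K, edgeR called Tor3a higher (0.83, adjusted p = 0.0381) and Daxx lower (-0.39, adjusted p = 0.0396). They were 1 each of 56 further interferon-induced genes, where 2.17% of all genes were higher and 1.77% lower. Tor3a lost its call under 7 of 14 alternatives and Daxx under 10. In the liver comparisons of the single genotypes with WT no gene of the pathway lists was called.

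Whether a genotype effect differs between tissues was tested in one fit over the 37 libraries. For TMEM106B-/- against WT 2 of 40 members were called, where 2.86% of 23384 genes were. They were Oasl2, with a liver effect lower than the cortex effect by 1.03 ± 0.26 on the log2 scale (adjusted p = 0.0237), and Parp14, lower by 0.78 ± 0.22 (adjusted p = 0.046). Of the 36 members tested in both tissues, 27 were negative in liver and positive in cortex, 9 had the same sign, and none was positive in liver and negative in cortex. For TDP-43Q331K against WT none was called (0.517% of genes). The liver effect was below the cortex effect for 36 of 40 members there. It was so for 35 of 40 for TMEM106B-/- and 26 of 40 for the combined genotype against WT. The same lean was thus seen in both single genotypes, which share the WT libraries. For the combined genotype against WT 3 of 40 were called, where 6.66% of genes were. Parp14 was lower in liver by 0.98 ± 0.22 (adjusted p = 0.00548), with means of 20.6 ± 2.50 CPM (SD, n = 4) in WT and 16.1 ± 2.71 in combined genotype livers. Rtp4, a chaperone of membrane receptors, was lower by 0.85 ± 0.25 (adjusted p = 0.0365). Its means were 13.2 ± 3.69 and 9.43 ± 1.74 CPM in liver and 1.46 ± 0.28 and 1.89 ± 0.27 CPM (n = 5) in cortex, WT first. Irf9 was lower by 0.66 ± 0.21 (adjusted p = 0.0474), with 45.1 ± 11.2 and 32.9 ± 2.70 CPM in liver and 7.44 ± 0.67 and 8.70 ± 1.70 CPM in cortex. Neither Rtp4 nor Irf9 was called in either tissue alone. Rtp4 shared 13.9% of its exon bases with Gm45338 and Irf9 2.28% with Rnf31, and reads from shared bases cannot be told apart. Without the filter on low counts 1 member was called in each of these 2 comparisons, Oasl2 and Parp14.

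The members moved together from library to library, above all in liver. For each library a score was taken as the mean log2 CPM of the tested members minus the WT mean, as a description with no test. In liver the scores of WT averaged 0 ± 0.228 (SD, n = 4). Those of TDP-43Q331K averaged -0.174 ± 0.122, of TMEM106B-/- -0.25 ± 0.357 and of the combined genotype -0.167 ± 0.255. The spread inside TMEM106B-/- came from a pair of libraries. Replicate 3 scored 0.229 and was the highest of its group for 32 of 40 members, where it was so for 20.7% of all genes. Replicate 2 scored -0.635 and was the lowest for 31 of 40, where it was so for 21.5% of all genes. In WT, replicate 1 was the lowest for 27 of 40 members (25.5% of all genes), and in TDP-43Q331K replicate 3 was the highest for 25 (35.4% of all genes). Irf1, the interferon-induced factor that is not among the 40, read 62.5 CPM in TMEM106B-/- replicate 3 and 65.3 CPM in TDP-43Q331K replicate 3, and at most 40.9 CPM in every other liver. Of the liver markers, T and NK cell transcripts were highest of the group in TMEM106B-/- replicate 3 (3.19 CPM in sum against 0.833 to 2.67), and their part was not tested.

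In cortex the scores were closer together. WT averaged 0 ± 0.121 (SD, n = 5) and TDP-43Q331K 0.135 ± 0.033 (n = 6). TMEM106B-/- stood at 0.218 ± 0.172 (n = 5), and the combined genotype at 0.079 ± 0.164 (n = 5). TDP-43Q331K libraries lay between 0.096 and 0.186, inside the span from -0.024 to 0.426 of TMEM106B-/-. The combined genotype's replicate 2 was the highest of its group for 20 of 36 members, where it was so for 25.9% of all genes. It also held the highest meninges sum of its group, 31.4 CPM, whose part was not tested.

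**Figure D5:**
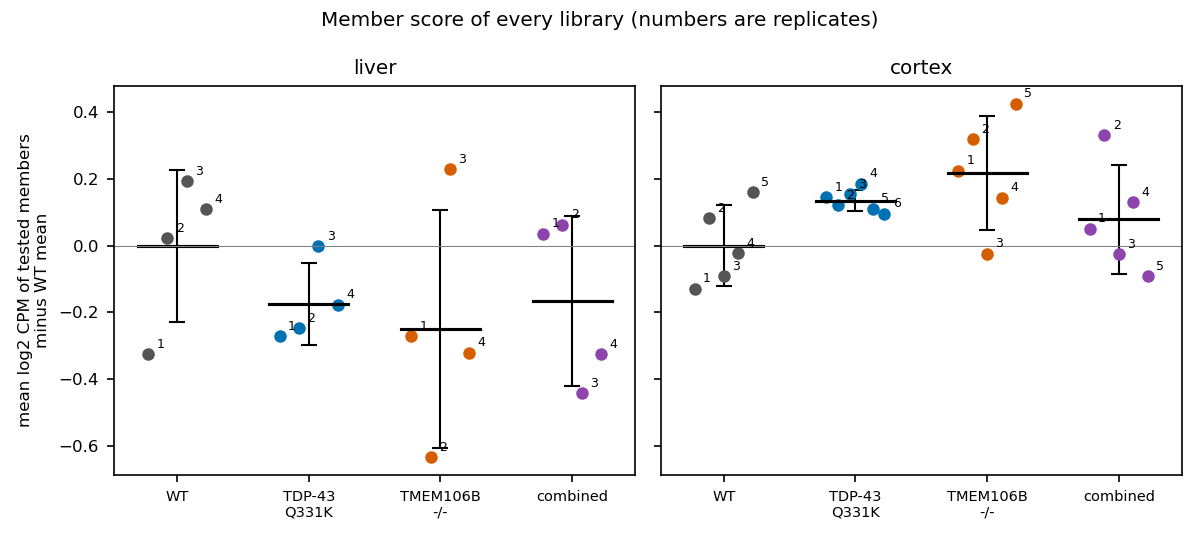
Member score of every library, the mean log2 CPM of the tested members minus the WT mean, in liver and cortex by genotype, with replicate numbers beside the points, lines as group means and error bars as SD. Liver scores run from -0.635 to 0.229 and cortex scores from -0.129 to 0.426, and the groups overlap in both tissues.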

How the data were processed

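RNA sequencing libraries were made from 700 ng of total RNA with a directional kit, per the labels' protocols. Per the submitters' processing notes, Trim Galore, cutadapt and FastQC were used, with the builds GRCm38 and mm10. Which aligner, counting program and strand setting were used is not given in the sources used here. Values were deposited by the authors as raw counts per gene in 1 table per tissue, without normalization. The cortex table also had 1 column that matched no label and was left out.

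Each tissue was fitted with its 4 genotypes in edgeR 4.0.16 (R 4.3.3): filterByExpr (minimum count 10, minimum total 15), TMM scaling, robust quasi-likelihood tests, two-sided, with Benjamini-Hochberg adjustment over all genes and calls under 0.05. Residual degrees of freedom were 12 in liver and 17 in cortex. The libraries' common biological variation (edgeR's BCV) was 0.235 for liver and 0.103 for cortex. A joint fit tested tissue by genotype. CPM are TMM-scaled, and lengths are GENCODE M21 exon unions. The pipeline was tested on simulated data.

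The members and lists were chosen with earlier results of these data known. Named genes were Tmem106b, Tardbp, every called member, 26 members whatever their values, the highest and lowest member per length, up to 4 called genes per pathway list, and 7 receptors, ligands and factors whatever their values, of which 1 is not reported here. Other names were added after seeing values. Alternatives were DESeq2 1.42.0, scaling by RLE, all genes without the low count filter, a fit of the compared groups alone, the replicate number as a block, each library left out, and 3 sets of libraries left out, chosen after seeing the data.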

Additional observations from a re-analysis of the deposited data

Results flagged for a closer look

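Among 88 groups of 4 to 6 libraries examined for a library far from the others, 3 had one, where chance gives about 1 in 20. Lgals3bp in TDP-43Q331K cortex was at 7.32 CPM in replicate 2 against at most 5.93 in the other 5. Iigp1 in WT liver was at 392.5 CPM in replicate 2, an acute phase high liver, against at most 266.2 in the other 3. Cxcl10 in TMEM106B-/- liver was at 2.51 CPM in replicate 3 against at most 1.11 in the others.

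Effects that differed between tissues by the test of the difference (log2, liver effect minus cortex effect) were those of Oasl2 (-1.03) and Parp14 (-0.78) for TMEM106B-/- against WT, and of Parp14 (-0.98), Rtp4 (-0.85) and Irf9 (-0.66) for the combined genotype against WT. They were 2 and 3 of 40 members, where 2.86% and 6.66% of all genes were called. Both counts were lower without the filter on low counts and with replicate number as a block. The effect of TMEM106B loss on Irf5 in liver differed with the Q331K change (interaction -0.89), a call lost under 12 of 21 alternatives.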

How the results depend on the processing

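Of 214 values of the 15 member counts under the alternatives, 165 stayed within 1.5 times of the reported count and 49 moved. The 165 include cortex counts of 0 from comparisons in which edgeR called no gene, which had little room to move. With DESeq2 the liver counts were 2 for TMEM106B-/- against WT, 1 each for the combined genotype against WT, TDP-43Q331K and TMEM106B-/-, and 4 for the interaction, all from 0, and in cortex 2 in place of 1 for the combined genotype against TDP-43Q331K. Without the filter on low counts the cortex counts were 1 for the combined genotype against WT and 0 against TDP-43Q331K, and the tissue difference counts were 1 and 1. Fitting only the compared groups gave 2, 1 and 0 in cortex for TMEM106B-/- and the combined genotype against WT and the combined genotype against TDP-43Q331K. With replicate number as a block, the tissue difference counts were 1 and 1, the cortex count for the combined genotype against TDP-43Q331K was 0, and no liver count moved from 0. The labels do not say what a replicate number marks. The correlation of same-numbered libraries was over 0.1 in 4 of 24 pairs in liver and 2 of 30 in cortex. Its median was -0.043 in liver and -0.013 in cortex, against 0.019 and 0 for libraries of different number. The highest same-number value was 0.278, in liver. Such values cannot exclude that a number marks a shared animal, litter or day. Without 3 high acute phase livers the combined genotype against WT gave 1, and without the cortex of highest meninges sum in each genotype the cortex counts were 2, 2 and 0. That cortex set left the difference in meninges sum between the genotypes in place. A set of 4 cortices taken over from an earlier analysis of these data (replicate 1 of WT, 3 of TDP-43Q331K, 5 of TMEM106B-/- and 2 of the combined genotype) gave 0, 1 and 0. The 1 was Ifi27, for the combined genotype against WT. In edgeR Parp14 (adjusted p = 0.0503) and Lgals3bp (adjusted p = 0.0829) were not called in that comparison. This set of 4 cortices holds the lowest meninges sum of WT and TDP-43Q331K and the highest of the other genotypes, so leaving it out narrows that difference by construction. Its values stay in the ranges and counts over the alternatives, and nothing else rests on it. Leaving out 1 library gave 2 to 4, 0 to 3 and 0 to 1 for these comparisons in cortex, and 0 to 1 in liver for TMEM106B-/- and the combined genotype against WT, the combined genotype against TDP-43Q331K and the interaction. Of 837 values of 50 single gene results, 0 reversed, 272 lost a call and 11 gained one. The causes of these changes were not tested. Depth was low in cortex for Mx1, Oas1a, Isg15, Oas3, Zbp1, Cxcl10 and Oasl1, among others.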
